A study of Homo sapiens with 12 samples.

Results

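The 9 genes described here encode proteins that act on the stability of other mRNAs: ZFP36, ZFP36L1, ZFP36L2, ELAVL1 and KHSRP of the AU-rich element system, PUM2 of the Pumilio family, the roquins RC3H1 and RC3H2, and TTC37. They were chosen by symbol, as 9 of the 26334 genes in the count table, and all 9 passed the filter on low counts that left 12775 tested genes. TTC37 is a scaffold subunit of the Ski complex, which feeds RNA to the cytoplasmic exosome. It is not known as a binder of 3′ untranslated regions (3′ UTRs), so the name of the group covers 8 of the 9 genes.

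Polyadenylated RNA was sequenced from shA673-1c cells after 0, 1, 2 and 4 h of 5 µM actinomycin D, a drug that blocks transcription, with 3 biological replicates at each time and 12 libraries in all. The line derives from A673, a Ewing sarcoma cell line, and carries a doxycycline-inducible short hairpin against the fusion oncogene EWS::FLI1. Every library, those at 0 h included, came from cells that had received 1 µg/ml doxycycline for 4 days, so all values describe cells with the hairpin switched on, and cells without doxycycline were not analysed here. The 1 h, 2 h and 4 h groups are therefore set against the same 0 h libraries, and all 4 groups come from this 1 line. With no new transcription, the course of an mRNA after the drug shows how fast it decays in comparison with the rest of the library.

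AU-rich elements are stretches of A and U in the 3′ UTR of many short-lived mRNAs, among them cytokines and immediate early genes. ZFP36 (tristetraprolin) and its paralogs ZFP36L1 and ZFP36L2 bind them through a pair of CCCH zinc fingers and recruit the CCR4-NOT deadenylase. KHSRP also promotes decay of such mRNAs, whereas ELAVL1 (HuR) is best known for stabilising them. PUM2 recognises a short UGUA-containing motif and also recruits CCR4-NOT, and the roquins RC3H1 and RC3H2 bind stem-loops in 3′ UTRs. Some of these proteins are known to act on their own mRNAs or on those of their paralogs.

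The motifs of these proteins also occur in the group's own 3′ UTRs, which is why their windows are shown. The AU-rich nonamer searched was TTATTTATT, the core preferred by the ZFP36 family, and the Pumilio motif searched was TGTANATA. Only the sense strand of the mRNA was read, in 1 GENCODE 29 transcript per gene on GRCh38, and the nonamer contains the shorter TATTTAT, which in turn contains ATTTA. The nonamer windows follow 5′ to 3′, as DNA letters with 6 flanking bases on each side and the match in capitals.
ZFP36: acgactTTATTTATTctaata
ZFP36L1: gttggaTTATTTATTttagaa
ZFP36L2: tttaacTTATTTATTatcttg
ELAVL1: atgtatTTATTTATTgaagtg
RC3H2 site 1: gttaacTTATTTATTtctatt
RC3H2 site 2: gacattTTATTTATTtcactc
All 6 matches lie in 3′ UTR sequence. They are at chr19:39409206-39409214 on the plus strand for ZFP36, chr14:68788087-68788095 on the minus strand for ZFP36L1, and chr2:43223458-43223466 on the minus strand for ZFP36L2. That of ELAVL1 is at chr19:7961838-7961846 on the minus strand, and those of RC3H2 are at chr9:122849209-122849217 and chr9:122847712-122847720 on the minus strand. The share of 3′ UTRs that hold the nonamer in a stretch as long as the gene's own was 3.64% at the 713 bases of ZFP36, 9.20% at the 1871 bases of ZFP36L1 and 9.34% at the 1917 bases of ZFP36L2. For the longer 3′ UTRs of ELAVL1 (4904 bases) and RC3H2 (5071 bases) it was 22.0% and 22.8%.

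The Pumilio motif was found in PUM2 itself and in both roquins, and the PUM2 windows are shown in the same way.
PUM2 site 1: tagagaTGTATATAgaatta
PUM2 site 2: aaatatTGTATATActtaca
They lie at chr2:20251153-20251160 and chr2:20250893-20250900 on the minus strand, in a 3′ UTR of 2894 bases, a length at which 41.6% of 3′ UTRs hold the motif. RC3H1 and RC3H2 had 2 matches each, at lengths where 74.8% and 59.7% of 3′ UTRs hold at least 1. The share that hold 2 or more was not counted. KHSRP, with a 3′ UTR of 764 bases, held neither motif and no ATTTA, and TTC37 held neither the nonamer nor the Pumilio motif but 3 copies of TATTTAT. A match is a run of letters and not evidence of binding, and no match says only that these letters are not in this window.

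The libraries held 9381855 to 10929000 counts. Of the Ewing sarcoma line markers, VIM was abundant (58544 to 68341 counts), FLI1 had 67 to 246 counts, NR0B1 14 to 54 and NKX2-2 1 to 27, and CD99 was listed at 0 in every library, a value that could not be checked because the annotation behind the counts is not given in the sources used here. Among 14 markers of blood, epithelium, liver and muscle, 2 passed the filter (HBB and DES) and 3 were at 0 everywhere (CD3E, MYOD1 and MYOG). Their summed level, scaled by library totals without TMM factors, was 22.1 to 34.4 CPM at 0 h and 19.4 to 31.7 at 1 h. It was 19.5 to 26.3 at 2 h and 12.9 to 22.3 at 4 h, and its part in the results was not tested. For the levels of genes given below, CPM are read counts scaled to a common library size, with TMM factors. The replicate 3 libraries stood apart on the second principal component (15.9% of the variance), so values without them are given where they matter.

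By TMM scaling the group split into mRNAs that were lost and mRNAs that kept their place. At 4 h the ZFP36, ZFP36L1, ZFP36L2 and PUM2 mRNAs were lower than at 0 h, by 1.96-fold to 4.61-fold, while ELAVL1, KHSRP, RC3H1, RC3H2 and TTC37 differed by at most 1.22-fold. By edgeR's quasi-likelihood test with adjustment over all tested genes and a threshold of 0.05, 4 of 9 members were lower at 4 h, against a background of 24.6% of all tested genes, and 2 of 9 were higher, against 23.3%. At 2 h the same 4 members were lower (background 11.7%) and 0 were higher (background 3.39%). At 1 h 0 members were lower (background 1.16%) and 0 were higher (background 0.172%). At 1 h 4 members had an unadjusted p under 0.05, for which the share of all genes was not counted. DESeq2 called 1 member at 1 h, and over all genes 181 lower and 40 higher.

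The libraries pair by replicate number, and a fit with the replicate as a block called more members and more genes. At 1 h it called 3 members lower (background 6.28%) and 0 higher (2.52%), at 2 h 4 lower (19.5%) and 2 higher (15.9%), and at 4 h 4 lower (30.8%) and 3 higher (34.8%). All 3 libraries lay below all 0 h libraries in 3 members at 1 h (background 9.55%) and in 4 members at 2 h (18.3%) and 4 h (27.5%). They lay above them in 0 members at 1 h (4.45%), in 1 member at 2 h (13.3%) and in 3 members at 4 h (27.9%). The share of members higher was thus near that of all genes at 4 h.

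**Figure D1:**
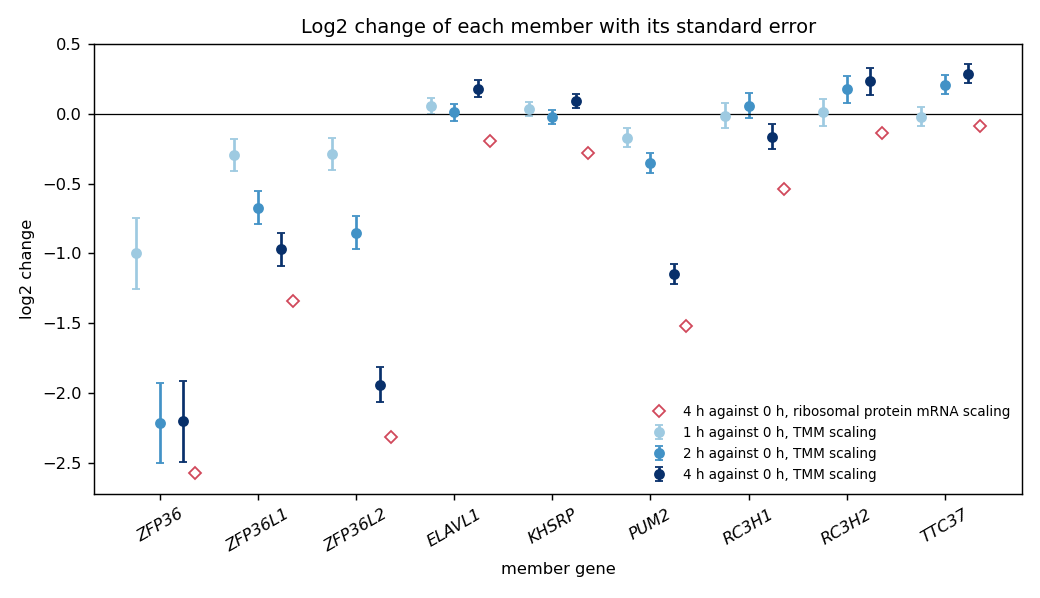
Fitted log2 change of the 9 members (x axis) at 1, 2 and 4 h against 0 h, with standard error bars and 3 libraries per time, and open diamonds for 4 h after scaling to ribosomal protein mRNAs. ZFP36, ZFP36L1, ZFP36L2 and PUM2 lie below 0 at every time, and ELAVL1, KHSRP, RC3H2 and TTC37 are above 0 at 4 h by TMM and below it by ribosomal scaling.

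These log2 changes are relative, because the counts carry no spike-in. TMM scaling assumes that most mRNAs keep their share, and under it the median tested gene changed by 0.05 at 4 h. Scaling to 77 ribosomal protein mRNAs moved that median to -0.32, and scaling to library totals moved it to -0.10. A scaling shifts all genes of a library alike, so a member's distance from the median gene is almost the same under all 4 scalings by construction. At 4 h TTC37 lay 0.23 above the median gene, RC3H2 0.18, ELAVL1 0.13 and KHSRP 0.04, and RC3H1 differed from it by -0.22. Fewer cells and less RNA per cell cannot be told apart in bulk samples, nor can loss of an mRNA and loss of its poly(A) tail in libraries selected for poly(A).

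**Figure D2:**
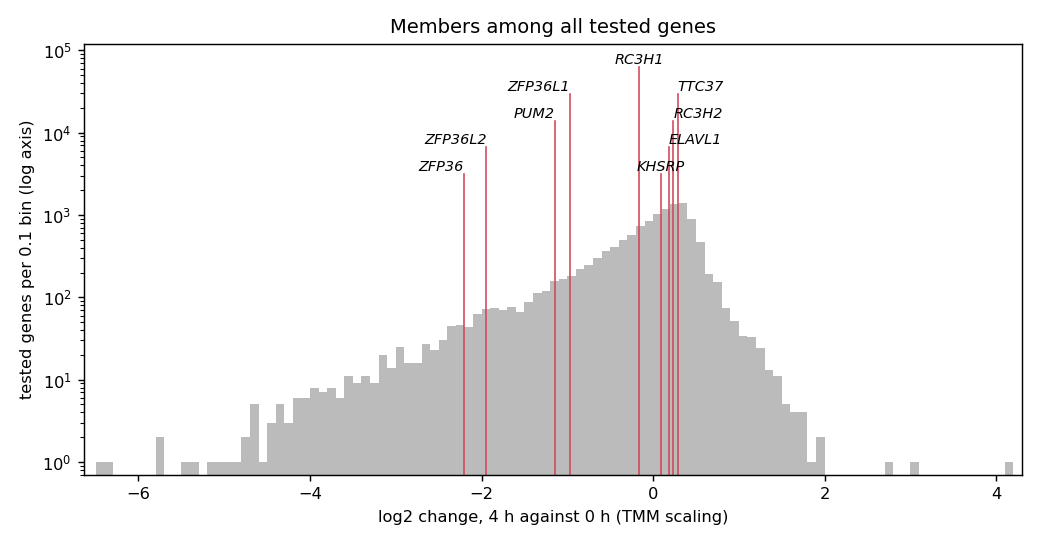
Number of tested genes (log axis) by log2 change at 4 h against 0 h, in bins of 0.1, with the 9 members marked. ZFP36 and ZFP36L2 lie in the lower tail, below the 5th percentile of all genes at -1.79, and the 5 members that were not lower lie around the peak.

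ZFP36 mRNA, which encodes the best studied of the 3 zinc finger decay factors, was lost fastest and then levelled off. In replicates 1, 2 and 3 its level was 11.3, 9.43 and 8.19 CPM at 0 h, 4.35, 4.24 and 5.82 CPM at 1 h, 1.86, 1.11 and 3.19 CPM at 2 h, and 1.81, 1.78 and 2.65 CPM at 4 h. No library at 1, 2 or 4 h reached any 0 h library, and the 2 h and 4 h libraries overlapped. These levels rest on few reads: 93 to 120 counts at 0 h, 42 to 67 at 1 h, 11 to 33 at 2 h and 16 to 25 at 4 h. Of the 0 h mean, 49.8%, 21.3% and 21.6% was left after 1, 2 and 4 h.

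The log2 change of ZFP36 was -0.998 at 1 h (SE 0.26; edgeR adjusted p = 0.0949, and 0.000301 with the replicate block), -2.22 at 2 h (SE 0.29; edgeR adjusted p = 0.000152) and -2.20 at 4 h (SE 0.29; edgeR adjusted p = 4.93e-05). Without replicate 3 of the 2 h group the 1 h change of ZFP36 passed the threshold (edgeR adjusted p = 0.0371). At 4 h the change was the 2.90th percentile of all tested genes. The change between 2 h and 4 h minus that between 0 h and 2 h was 2.23 (SE 0.56), a flattening that missed the threshold (edgeR adjusted p = 0.119) and passed it with the replicate block (edgeR adjusted p = 0.00257). By this measure of a changing rate 0 members were called without the block in either direction, against 0.227% of tested genes lower and 0.384% higher. An unadjusted p under 0.05 was found in 2 members, for which the share of all genes was not counted. DESeq2 called 1 member, and over all genes 68 lower and 77 higher. The block called 1 member lower (background 5.46%) and 1 higher (7.39%).

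ZFP36L1, the most abundant of the 3 paralogs, was lost slowly. Its level in replicates 1, 2 and 3 was 210, 216 and 178 CPM at 0 h, 166, 160 and 166 CPM at 1 h, 129, 115 and 135 CPM at 2 h, and 95.5, 86.9 and 126 CPM at 4 h. The 0 h libraries were above all later ones, and replicate 3 kept more of its mRNA than the other replicates. The log2 change was -0.29 at 1 h (SE 0.12; edgeR adjusted p = 0.390, and 0.00954 with the replicate block), -0.67 at 2 h (SE 0.12; edgeR adjusted p = 0.00171) and -0.97 at 4 h (SE 0.12; edgeR adjusted p = 2.78e-05). Of the 0 h mean, 51.0% was left at 4 h.

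ZFP36L2 ended almost as far down as ZFP36, by a different course. Its level in replicates 1, 2 and 3 was 81.7, 96.2 and 67.7 CPM at 0 h, 70.5, 69.0 and 61.8 CPM at 1 h, 41.8, 44.9 and 49.2 CPM at 2 h, and 21.1, 19.7 and 23.1 CPM at 4 h. The 1 h libraries overlapped those at 0 h, and those at 2 h and 4 h did not. The log2 change was -0.29 at 1 h (SE 0.12; edgeR adjusted p = 0.398, and 0.0205 with the replicate block), -0.85 at 2 h (SE 0.12; edgeR adjusted p = 0.000263) and -1.94 at 4 h (SE 0.13; edgeR adjusted p = 8.56e-08). Of the 0 h mean, 82.0% was left at 1 h, 55.3% at 2 h and 26.0% at 4 h.

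All 3 paralogs fell least in replicate 3. Against the 0 h library of the same replicate, the 4 h log2 ratio in replicates 1, 2 and 3 was -2.64, -2.41 and -1.63 for ZFP36, -1.14, -1.31 and -0.50 for ZFP36L1, and -1.95, -2.29 and -1.55 for ZFP36L2. PUM2 varied less, at -1.15, -1.25 and -1.05. With replicate 3 left out at all times, an alternative added after its libraries were seen to stand apart, the 4 h log2 change was -2.54 for ZFP36, -1.25 for ZFP36L1 and -2.15 for ZFP36L2. At 1 h ZFP36 and ZFP36L1 then passed the threshold (edgeR adjusted p = 0.00679 and 0.0249), and at 2 h ZFP36 had a log2 change of -2.80.

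**Figure D3:**
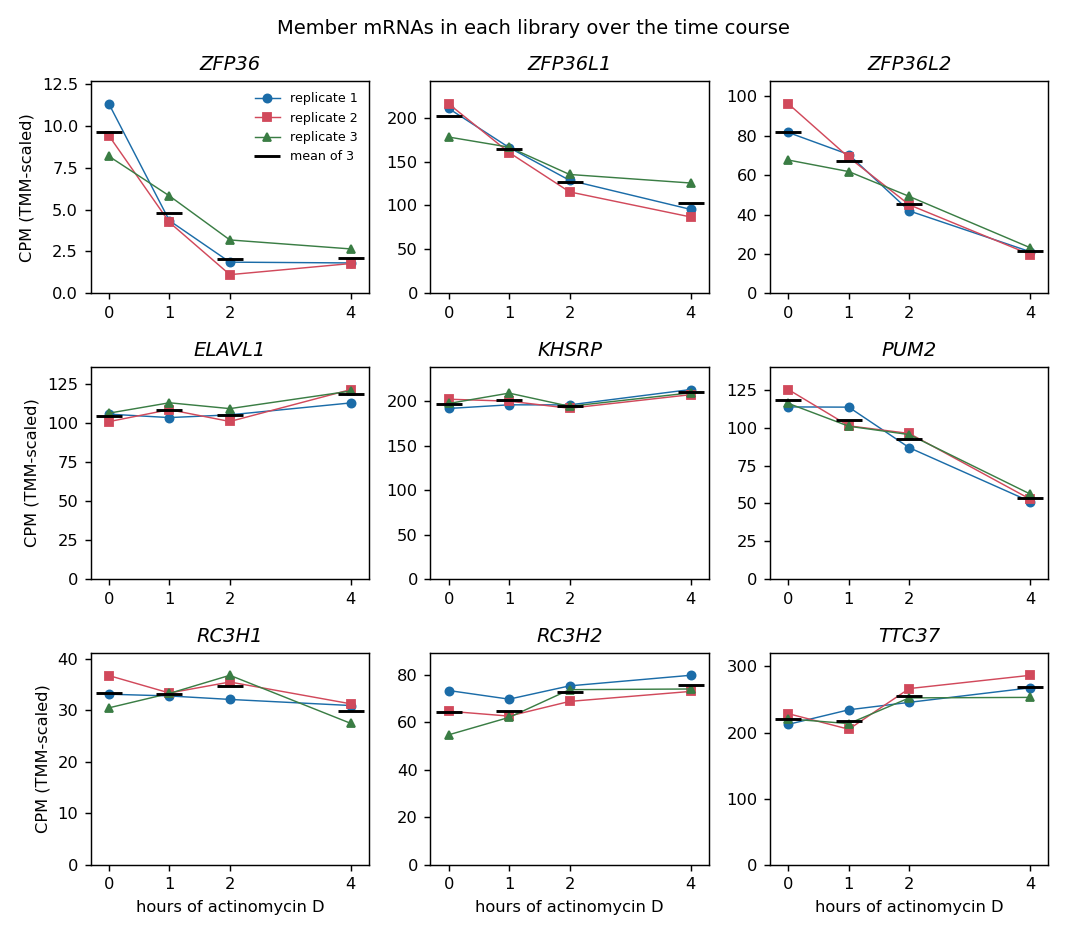
Level of each member (CPM after TMM scaling, y axis from 0) in each library against hours of actinomycin D, with a line per replicate and a dash for the mean of 3. The 4 mRNAs that were lost have 4 h libraries below all 0 h libraries, and replicate 3 is the highest at 4 h in ZFP36, ZFP36L1, ZFP36L2 and PUM2.

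The ratio of a pair of paralogs within a library needs no scaling between libraries, so it shows whether they were lost at different rates. For each of 4 pairs the slope of the log2 count ratio was tested by a two-sided exact permutation test over 369600 arrangements of the time labels, with adjustment over the 4 pairs. ZFP36L1 gained on ZFP36L2: the count ratio averaged 2.48 ± 0.210, 2.46 ± 0.204, 2.80 ± 0.256 and 4.79 ± 0.554 at 0, 1, 2 and 4 h (SD, n = 3 each). The 4 h libraries (4.41 to 5.42) lay above all 0 h libraries (2.24 to 2.63). The slope was 0.25 per hour on the log2 scale (SE 0.04; exact permutation p = 0.00033, adjusted 0.00132).

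ZFP36 lost ground to ZFP36L1, with a slope of -0.30 per hour (SE 0.11; exact permutation p = 0.0217, adjusted 0.0289). Without replicate 1 or replicate 3 of the 0 h group this p became 0.0573 or 0.0514. Against ZFP36L2 the slope of ZFP36 was -0.05 per hour (SE 0.14; exact permutation p = 0.744), and the course was not a straight line. The ratio averaged 0.120, 0.0731, 0.0457 and 0.0993 at 0, 1, 2 and 4 h, with ZFP36 lost mostly before 2 h and ZFP36L2 also after it. RC3H1 lost ground to its paralog RC3H2: their ratio averaged 0.527, 0.514, 0.482 and 0.397 at 0, 1, 2 and 4 h, with a slope of -0.11 per hour (SE 0.03; exact permutation p = 0.00269, adjusted 0.00538). Because the libraries pair, the time labels were also permuted only within replicate numbers. That exact permutation p was 0.0352 for ZFP36 over ZFP36L1 (adjusted 0.0469) and 0.734 for ZFP36 over ZFP36L2. It was 0.000651 for ZFP36L1 over ZFP36L2 and 0.000289 for RC3H1 over RC3H2.

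**Figure D4:**
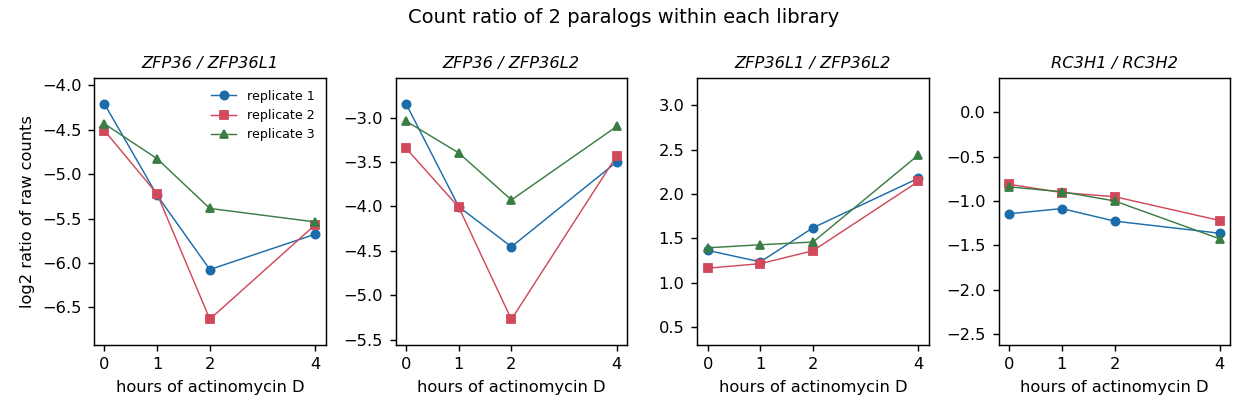
Log2 ratio of the raw counts of 2 paralogs in each library (y axis, spanning 3 units in every panel) against hours of actinomycin D, with a line per replicate. ZFP36L1 over ZFP36L2 is highest at 4 h in all 3 replicates, RC3H1 over RC3H2 lowest at 4 h, and ZFP36 over ZFP36L2 lowest at 2 h.

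PUM2, a Pumilio repressor, was already lower by 2 h, and the larger part of its loss came after 2 h. Its level in replicates 1, 2 and 3 was 114, 125 and 116 CPM at 0 h, 114, 101 and 101 CPM at 1 h, 86.9, 96.3 and 95.6 CPM at 2 h, and 51.2, 52.8 and 56.2 CPM at 4 h. The later libraries were all below the 0 h libraries, at 1 h by a margin of less than 1 CPM. The log2 change was -0.17 at 1 h (SE 0.07; edgeR adjusted p = 0.436), -0.35 at 2 h (SE 0.07; edgeR adjusted p = 0.00441) and -1.15 at 4 h (SE 0.07; edgeR adjusted p = 7.45e-08).

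Per hour, the log2 mean of PUM2 changed by -0.17 between 0 and 1 h, -0.18 between 1 and 2 h and -0.40 between 2 and 4 h. This speeding up was -0.45 in the contrast of the later with the earlier 2 h (SE 0.12) and passed the threshold with the replicate block (edgeR adjusted p = 0.00498) but not without it (edgeR adjusted p = 0.157).

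ELAVL1, the stabilising AU-rich element binder, was a little higher at 4 h by TMM scaling. In replicates 1, 2 and 3 it had 105, 101 and 106 CPM at 0 h, 103, 108 and 113 CPM at 1 h, 105, 101 and 109 CPM at 2 h, and 113, 121 and 120 CPM at 4 h. The 4 h libraries lay above those at 0 h, and the 1 h and 2 h libraries overlapped them. At 4 h the difference was 0.18 on the log2 scale (SE 0.06; edgeR adjusted p = 0.0230). That call depended on scaling: with ribosomal protein mRNAs as the standard the value was -0.19 (edgeR adjusted p = 0.0339), and with library totals 0.03 (edgeR adjusted p = 0.730). It also missed the threshold without replicate 2 or replicate 3 of either the 0 h or the 4 h group, with edgeR adjusted p of 0.0594 to 0.107.

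KHSRP, a KH-domain decay factor, was present at much the same level throughout. It averaged 197 ± 5.22, 202 ± 6.73, 194 ± 1.90 and 210.0 ± 2.94 CPM at 0, 1, 2 and 4 h (SD, n = 3 each). At 4 h its libraries held 213, 207 and 209 CPM, against 192, 202 and 197 CPM at 0 h. They did not overlap, but the log2 change of 0.09 (SE 0.05) did not pass the threshold (edgeR adjusted p = 0.150), and 27.9% of all tested genes had 4 h libraries entirely above those at 0 h. Ribosomal scaling turned it to -0.28 (edgeR adjusted p = 0.00208) and library totals to -0.06 (edgeR adjusted p = 0.379).

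The roquins RC3H1 and RC3H2, ubiquitin ligases that bind stem-loops, did not pass the threshold at 1, 2 or 4 h, and their log2 changes at 4 h had opposite signs by TMM and the same sign by ribosomal scaling. RC3H1 had 33.1, 36.8 and 30.5 CPM at 0 h, 32.8, 33.4 and 33.3 CPM at 1 h, 32.1, 35.5 and 36.8 CPM at 2 h, and 30.9, 31.3 and 27.5 CPM at 4 h. The groups overlapped at every time, and the 4 h log2 change was -0.16 (SE 0.09; edgeR adjusted p = 0.160). Ribosomal scaling gave -0.54 and library totals -0.31, both past the threshold (edgeR adjusted p = 0.000388 and 0.0134).

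RC3H2 had 73.3, 64.6 and 54.6 CPM at 0 h, 69.6, 62.5 and 62.0 CPM at 1 h, 75.2, 68.7 and 73.6 CPM at 2 h, and 79.7, 72.9 and 73.9 CPM at 4 h. The wide spread at 0 h made the groups overlap, although each replicate was higher at 4 h than at 0 h. The 4 h log2 change was 0.23 (SE 0.10; edgeR adjusted p = 0.0624), and with the replicate block the adjusted p was 0.0236 at 2 h and 0.00150 at 4 h. Without replicate 1 of the 0 h group the 4 h value also passed the threshold (0.34, edgeR adjusted p = 0.0137). Ribosomal scaling gave -0.14 at 4 h (edgeR adjusted p = 0.366).

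TTC37, the Ski complex scaffold, had 212, 228 and 221 CPM at 0 h, 234, 205 and 213 CPM at 1 h, 246, 266 and 252 CPM at 2 h, and 268, 287 and 253 CPM at 4 h. All 2 h and 4 h libraries lay above all 0 h libraries. The log2 change was 0.21 at 2 h (SE 0.07; edgeR adjusted p = 0.0557, and 0.000975 with the replicate block) and 0.29 at 4 h (SE 0.07; edgeR adjusted p = 0.00355). Without replicate 1 of the 1 h group the 2 h value of TTC37 passed the threshold (edgeR adjusted p = 0.0401). Library totals gave 0.14 at 4 h (edgeR adjusted p = 0.107) and ribosomal scaling -0.09 (edgeR adjusted p = 0.421). Of its partners, the helicase SKIV2L had a log2 change of 0.46 at 4 h (SE 0.06; edgeR adjusted p = 7.82e-05) and 0.09 by ribosomal scaling (edgeR adjusted p = 0.354). WDR61 had 0.17 (edgeR adjusted p = 0.0633).

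A straight line over the 4 times put the decaying members in order. By TMM the slope in log2 units per hour was -0.61 for ZFP36 (SE 0.10), -0.50 for ZFP36L2 (SE 0.03), -0.29 for PUM2 (SE 0.02) and -0.24 for ZFP36L1 (SE 0.03). These correspond to halving times of 1.64, 2.02, 3.46 and 4.09 h, and by ribosomal scaling to 1.43, 1.68, 2.57 and 2.90 h. The test of their ratio above did not separate the slopes of ZFP36 and ZFP36L2, a difference between PUM2 and ZFP36L1 was not tested, and a line describes ZFP36 poorly, since its level was flat after 2 h. By slope, 4 of 9 members were lower (background 25.5%) and 3 of 9 were higher, ELAVL1, RC3H2 and TTC37 (background 25.3%), and under ribosomal scaling 0 were higher. The slope calls of ELAVL1 and RC3H2 were lost in several fits that left out 1 library, with edgeR adjusted p of up to 0.136 for ELAVL1 (without replicate 2 at 4 h) and 0.125 for RC3H2 (without replicate 3 at 0 h).

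Levels can be compared between genes only per length. In CPM per kilobase of the GENCODE transcript, KHSRP was at 65.9 ± 1.74 at 0 h and ZFP36L1 at 63.1 ± 6.43 (SD, n = 3 each), which did not differ beyond their spread. TTC37 followed at 27.4 ± 1.00, then ZFP36L2 at 22.1 ± 3.87, PUM2 at 19.4 ± 0.994 and ELAVL1 at 17.3 ± 0.493. RC3H2 (6.94 ± 1.01), ZFP36 (5.40 ± 0.885) and RC3H1 (3.05 ± 0.287) were the least abundant. The libraries of ZFP36L2 overlapped those of PUM2 at 0 h. At 4 h KHSRP stood alone at 70.2 ± 0.982, TTC37 was at 33.5 ± 2.08 and ZFP36L1 at 32.2 ± 6.36, and ZFP36L2, at 5.76 ± 0.470, lay below RC3H2 at 8.16 ± 0.395.

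The wider machinery gave a background for the members. A list of other binders of AU-rich, Pumilio and stem-loop elements also held factors outside these classes, such as LIN28B and TNRC6C. Of its 28 tested genes, 9 were lower at 4 h and 3 higher, against 24.6% lower and 23.3% higher of all tested genes. The median log2 change was -0.07 against 0.05 for all tested genes. The RNA-binding factor LIN28B (5.15 ± 0.210 CPM at 4 h and 20.6 ± 2.31 CPM at 0 h, SD, n = 3 each; edgeR adjusted p = 1.51e-06) and the Argonaute partner TNRC6C (log2 change -1.03, SE 0.11; edgeR adjusted p = 1.14e-05) fell. The AU-rich element binders HNRNPD, TIA1 and TIAL1 had values of 0.16, 0.20 and 0.09, like ELAVL1 close to the middle of all genes. Of these HNRNPD passed the threshold (edgeR adjusted p = 0.0434). They do not stand for the whole list, on which other binders lay further out in both directions. YBX1 had 0.46, CELF1 -0.39 and AUH -0.34 (edgeR adjusted p = 1.19e-05, 0.00343 and 0.223).

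A list of deadenylation genes held subunits of CCR4-NOT, which the ZFP36 family and Pumilio proteins recruit. It also held other deadenylases, poly(A)-binding proteins and adaptors. Of its 20 tested genes, 12 were lower at 4 h and 3 higher, with a median of -0.40, against 24.6% lower and 23.3% higher of all tested genes. The genes of this list with the smallest adjusted p were BTG1, TOB2 and TOB1, antiproliferative adaptors of CCR4-NOT. BTG1 was 14.7-fold lower at 4 h, with 3.30 ± 0.975 CPM at 4 h and 48.2 ± 1.48 CPM at 0 h (SD, n = 3 each; edgeR adjusted p = 1.53e-09), and TOB2 and TOB1 had log2 changes of -2.24 and -2.82 (edgeR adjusted p = 3.62e-08 and 2.18e-07). For decapping and 5′ decay, 4 of 18 were lower and 2 higher, with a median of 0.03. They included the eIF4E transporter EIF4ENIF1 (-1.71), the helicase DDX6 (-0.80) and the decapping cofactor DCP1B (-2.12). Of 18 Ski complex and exosome genes, TTC37 left out, 4 were lower and 2 higher with a median of 0.05, and the lower ones included the exosome subunits EXOSC3 (-0.54) and EXOSC6 (-0.63).

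mRNAs described as targets of the ZFP36 family or as carrying AU-rich elements were followed from a list named from the literature. This list, like the others, was chosen with earlier results of these data known. Of 30 listed, 23 were tested, 10 were lower at 4 h and 3 higher, and the median was -0.26. Of all tested genes 24.6% were lower and 23.3% higher at 4 h. JUN, a transcription factor, had a log2 change of -4.37, the phosphatase DUSP1 -4.88 and the survival factor MCL1 -1.83 (edgeR adjusted p = 2.20e-09, 7.69e-09 and 6.95e-09). At 1 h 5 of these 23 were lower, and 9 with the replicate block, against 1.16% and 6.28% of all tested genes. Of 8 tested mRNAs described as roquin targets, 4 were lower and 1 higher at 4 h, with a median of -0.56. IER3, a stress response gene that stands in both lists, had -3.57, the NF-κB subunit REL -1.20 and the NF-κB inhibitor TNFAIP3 -2.02. All 3 comparisons share the 0 h libraries, and whether these proteins acted on any of the mRNAs in these cells was not tested.

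The genes whose course was most like a member's were found as the smallest root mean square difference, over 12 libraries, of log2 level relative to the 0 h mean, among 10253 genes. For ZFP36 they were SMAD7 (0.347), ZNF680 (0.379) and ZNF250 (0.391), distances that include the counting noise of a low level. For ZFP36L1 they were PCGF1 (0.117), WIPF2 (0.120) and TET3 (0.125). For ZFP36L2 they were USP38 (0.112), RLIM (0.115) and MCPH1 (0.124). For RC3H1, whose level changed little by TMM scaling, they were CHORDC1 (0.0511), PRPF38B (0.0588) and PHF20L1 (0.0624).

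The motifs shown at the outset were also counted in the 3′ UTRs of the other tested genes, as a description of the mRNAs these proteins are known to recognise. Of the tested genes 11658 (91.3%), members left out, had a 3′ UTR model, and genes were compared within 3′ UTRs of 1000 to 2000 bases, since longer ones hold more matches. For the Pumilio motif, the median log2 change at 4 h was -0.35 in 199 genes with 2 or more matches, -0.08 in 544 genes with 1 match and 0.09 in 1877 genes with none. Lower at 4 h by edgeR were 46.7%, 33.3% and 22.2% of them, in the same order. The median A and T content of these 3′ UTRs was 64.9%, 61.9% and 55.6%, so composition moved with the number of matches.

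The difference between genes with 2 or more Pumilio matches and genes with none was seen in each replicate. In replicates 1, 2 and 3 it was -0.49, -0.53 and -0.40 at 4 h, a mean of -0.47 ± 0.07 (SD, n = 3), and at 1 h it was -0.03, -0.10 and -0.05. Within 3′ UTRs of 55 to 65% A and T the difference was -0.30 ± 0.04, and in 3′ UTRs of 2000 to 4000 bases -0.27 ± 0.02. In that A and T range the median log2 change was -0.23 with 2 or more matches, -0.22 with 1 and 0.03 with none. Lower at 4 h were 42.6%, 41.6% and 23.3%, so the step lay almost wholly between none and 1 match. For the AU-rich nonamer the corresponding difference, 37 genes with 2 or more matches against 2420 with none, was -0.04, -0.30 and 0.05 at 4 h, a mean of -0.10 ± 0.18 (SD, n = 3), which did not exceed the spread between replicates. In 3′ UTRs of 2000 to 4000 bases it was -0.26 ± 0.12, over 54 genes with 2 or more matches, and over any length -0.25 ± 0.07. Within 55 to 65% A and T it was -0.0012 ± 0.11, over 10 genes with 2 or more matches, and among genes of at least 5 CPM -0.0032 ± 0.044. For both motifs the SD is over 3 replicates of the same genes. It does not measure the spread between genes, and the gene classes were not tested against each other.

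**Figure D5:**
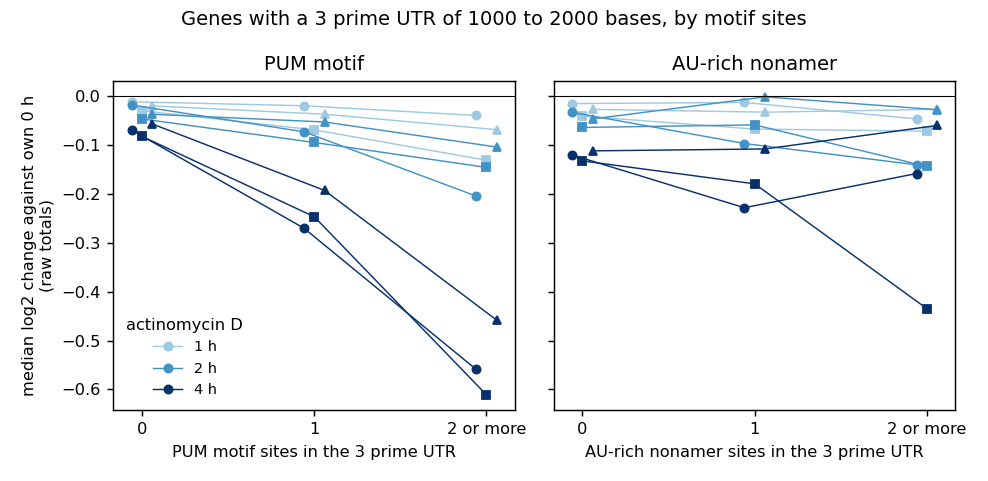
Median log2 change against the 0 h library of the same replicate (y axis, scaled by raw totals) for genes with 0, 1 or 2 or more matches of the AU-rich nonamer or the Pumilio motif in a 3′ UTR of 1000 to 2000 bases, with a line per replicate and a colour per time. For the Pumilio motif all 3 replicates step down at 4 h as matches increase, and for the nonamer the replicates spread.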

How the data were processed

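Poly(A) RNA of 12 libraries was prepared with a stranded Illumina kit, per the labels' protocols. The authors deposited raw counts per gene symbol. Per the submitters' processing notes, reads went through FastQC and STAR with hg19, no version being stated; the counting program, annotation and strand setting are not given in the sources used here, so antisense partners could not be checked. The replicates are called biological; p-values measure the spread between these cultures. Counts between replicates differed by more than sampling noise (chi-square per degree of freedom 4.16 to 15.3), so none was a duplicate.

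From the counts, edgeR 4.0.16 (R 4.3.3) was run over all 12 libraries with filterByExpr, TMM scaling, the quasi-likelihood test and Benjamini-Hochberg adjustment over 12775 genes, threshold 0.05. CPM are TMM-scaled. The SE of a log2 change was derived from the F statistic. Paralog count ratios had 0.5 added to each count and were tested by exact permutation; these and the edgeR fits were checked on simulated data. Same-numbered libraries deviated together (correlations 0.263 to 0.649 over 18 pairs of libraries, against -0.501 to 0.160 over 36 pairs with different numbers), so the numbers pair the libraries, and a fit with replicate as a block stands beside results it changes. Alternatives were DESeq2 1.42.0, other scalings, no filter and leaving out each replicate. 3′ UTRs came from GENCODE 29 on GRCh38, not the authors' build, and the motif classes were chosen after the data were seen. The members and gene lists were chosen with earlier results of these data known. Named genes are the 9 members, up to 3 genes per list with the smallest adjusted p at 4 h, and the 3 nearest courses for ZFP36, ZFP36L1, ZFP36L2 and RC3H1 among genes of at least 5 CPM. HNRNPD, TIA1, TIAL1, YBX1, CELF1, AUH and WDR61 were added to the genes of this rule after their values were seen. The result of 1 gene that this rule names is not reported here.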

Additional observations from a re-analysis of the deposited data

How the results depend on the processing

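Depth limits ZFP36, with 11 to 33 counts at 2 h. The falls of ZFP36, ZFP36L1, ZFP36L2 and PUM2 at 2 h, at 4 h and by slope kept their direction and passed under every alternative run. Changes in the other members depend on scaling, and the cause was not tested.

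Members called, all lower, at 1 h were 0; DESeq2 gave 1, the replicate block 3, the block with ribosomal scaling 2, leaving out replicate 3 at all times 2, and leaving out 1 library 0 to 1. Higher at 2 h were 0; DESeq2 gave 1, the block 2 and leaving out 1 library 0 to 1. Ribosomal scaling, with or without the block, gave 7 lower and 0 higher at 4 h and by slope; library totals gave 0 higher in both. Higher at 4 h were 1 with no filter, 1 without replicate 3 and 1 to 3 leaving out 1 library; higher by slope were 1 by RLE, 1 without replicate 3 and 1 to 3 leaving out 1 library. By change of rate DESeq2 called 1 (higher), the block 2 (1 lower, 1 higher) with or without ribosomal scaling, and leaving out replicate 3 called 1 (higher). The block changed no other member's call than those given beside the results.

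Reversed log2 changes under ribosomal scaling, without and with the block, were -0.126 and -0.127 at 2 h, -0.191 and -0.190 at 4 h and -0.0582 and -0.0579 per hour for ELAVL1; -0.282 and -0.283 at 4 h and -0.0806 and -0.0807 per hour for KHSRP; -0.0825 and -0.0794 at 2 h for RC3H1; -0.139 and -0.134 at 4 h and -0.0362 and -0.0348 per hour for RC3H2; and -0.0861 and -0.0865 at 4 h and -0.0191 and -0.0191 per hour for TTC37. Library totals gave -0.0444 at 2 h for ELAVL1, and -0.0597 at 4 h and -0.0207 per hour for KHSRP. Without replicate 3 at all times they were -0.0120 (ELAVL1, 2 h), -0.0570 (RC3H1, 2 h), -0.0640 (RC3H2, 1 h) and 0.0185 (RC3H2, change of rate). Leaving out 1 library, the ranges were -0.0155 to 0.0404 (ELAVL1, 2 h), -0.0832 to 0.0616 (RC3H1, 1 h), -0.0135 to 0.131 (RC3H1, 2 h), -0.0994 to 0.131 (RC3H2, 1 h) and -0.0797 to 0.0266 (TTC37, 1 h). For ZFP36 over ZFP36L2 the slope was 0.00964 with a pseudocount of 5 and -0.131 to 0.0155 leaving out 1 library, and for ZFP36 over ZFP36L1 -0.346 to -0.252.

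Calls over all tested genes at 1 h numbered 148 lower and 22 higher; alternatives gave 802 and 322 with the block, 640 and 261 with the block and ribosomal scaling, 40 higher by DESeq2, 9 higher without replicate 3 and, leaving out 1 library, as few as 44 lower and 5 higher. At 2 h the counts were 1496 and 433, against 2496 and 2037 with the block, 3953 and 200 with the block and ribosomal scaling, and, for genes higher, 143 by library totals, 25 by ribosomal scaling, 264 with no filter, 274 without replicate 3 and as few as 135 leaving out 1 library. At 4 h they were 3148 and 2975, against 5854 and 153 by ribosomal scaling, 7369 and 463 with the block added, and 1346 higher by library totals. By slope they were 3260 and 3232, against 6113 and 63 by ribosomal scaling, 7105 and 167 with the block added, and 1348 higher by library totals. By change of rate they were 29 and 49, against 697 and 944 with the block, 1340 and 466 with the block and ribosomal scaling, 68 and 77 by DESeq2, 30 higher by ribosomal scaling, 14 lower without replicate 3 and as few as 1 and 4 leaving out 1 library. The Pumilio motif difference of -0.47 was -0.40 over any 3′ UTR length.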
